A study of Mus musculus with 4 samples.

Results

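The IFIT and OAS families of antiviral genes were followed across 4 arrays of murine embryonic fibroblasts (MEFs). The members were 10 genes taken by symbol: Ifit1, Ifit2, Ifit3, Oas1a, Oas1b, Oas1g, Oas2, Oas3, Oasl1 and Oasl2. They had 21 probes, 5 for the Ifit genes and 16 for the Oas genes, among the 45281 probes and 30872 gene symbols of the array. They were chosen by their measured intensity ratios to the parental array, known to be low on all TAT-Cre arrays, so their fall against parental is a description and not a finding. Their ratios among the TAT-Cre arrays were also known at that time and are a description as well.

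All arrays were Illumina MouseWG-6 v2.0 BeadChips, with 1 array for each of 4 conditions and no replicate. Strain FVB;129 MEFs from Rb f/f mice, in which loxP sites flank the endogenous Rb gene, were the starting cells in every condition. Parental MEFs received a solution lacking TAT-Cre and medium without virus, and are labelled unaltered controls. Rb-deleted MEFs received TAT-Cre, a cell-permeable Cre recombinase, in 2 treatments of 1 hr given 3 hr apart, and no virus. WT Rb-HA MEFs received the same TAT-Cre and a retrovirus with wild-type Rb. ΔCdk Rb-HA MEFs received TAT-Cre and a retrovirus with the phospho-mutant dCDK form of Rb. In this form, by the methods, acceptor sites for cyclin-dependent kinases were changed to alanine, and 1 putative site was left unaltered. According to the methods, but not to the labels, cells of every condition were released from contact inhibition for 4 hr and then exposed to doxorubicin, a topoisomerase II inhibitor that damages DNA, at 100 ng/ml for 3 hr. No array without doxorubicin was analysed here. Deletion of Rb cannot be told apart from exposure to TAT-Cre in these samples. Re-expressed Rb, WT or ΔCdk, cannot be told apart from retroviral infection when it is set against Rb-deleted MEFs. The number of embryos or cultures behind an array is not given in the sources used here.

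Both families belong to the type I interferon response. Interferon binds its receptor, Jak kinases activate Stat transcription factors, and these join Irf9 in the complex ISGF3, which binds interferon-stimulated response elements (ISREs) in promoters. Ifit proteins, built of tetratricopeptide repeats, bind foreign RNA and hinder its translation. Oas enzymes bind double-stranded RNA and make short oligoadenylates, a signal that leads to the breakdown of RNA. Fibroblasts are a classical cell type for this response.

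The promoters were looked up in a RefSeq table of build GRCm38.p6, which holds 250 bases before and 50 bases after each annotated transcription start. A core of the ISRE, GAAANNGAAA, was searched on both strands, so that TTTCNNTTTC marks a match on the other strand. It was found in 1131 of all 32851 promoters of that length (3.44%). Of the 10 members 8 were in the table, with 9 promoters, and 5 genes had the core: Ifit1, Ifit3, Oas1a, Oas1g and Oas3. No match lay in the windows of Ifit2, Oasl1 and Oasl2, which says only that these letters are not there. Oas1b and Oas2 are not listed in the table. The stretches that hold the core are shown because ISREs are the elements that the response works through, and 5 of the 8 genes searched have the core. Capitals mark the core, and every stretch ends before the start site and reads in the direction of the gene.
Ifit1, chr19:34640760-34640838, plus strand: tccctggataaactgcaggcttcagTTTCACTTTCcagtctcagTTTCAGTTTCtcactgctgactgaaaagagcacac
Ifit3, chr19:34583348-34583441, plus strand: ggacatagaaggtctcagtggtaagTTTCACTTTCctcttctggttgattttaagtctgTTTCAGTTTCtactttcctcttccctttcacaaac
Oas1a, chr5:120907526-120907570, minus strand: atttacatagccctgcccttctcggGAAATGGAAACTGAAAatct
Oas1g, chr5:120887614-120887656, minus strand: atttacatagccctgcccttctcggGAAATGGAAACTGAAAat
Oas3, chr5:120777700-120777759, minus strand: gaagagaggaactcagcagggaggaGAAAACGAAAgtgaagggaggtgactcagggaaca

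Ifit1 and Ifit3 carried the same pair of cores, TTTCACTTTC followed by TTTCAGTTTC, at -104 and -85 bases from the start in Ifit1 and at -156 and -122 bases in Ifit3. In Oas1a and Oas1g the capitals hold 2 cores that overlap each other, GAAATGGAAA and GAAACTGAAA, within the last 20 bases before the start. The promoters of this pair share a run of 56 identical bases there. Oas3 had a single core at -75 bases. The Ifit genes lie on chromosome 19 and the Oas genes on chromosome 5, and the annotation lists Oas1b as a transcribed pseudogene and the other 9 as protein coding.

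**Figure D1:**
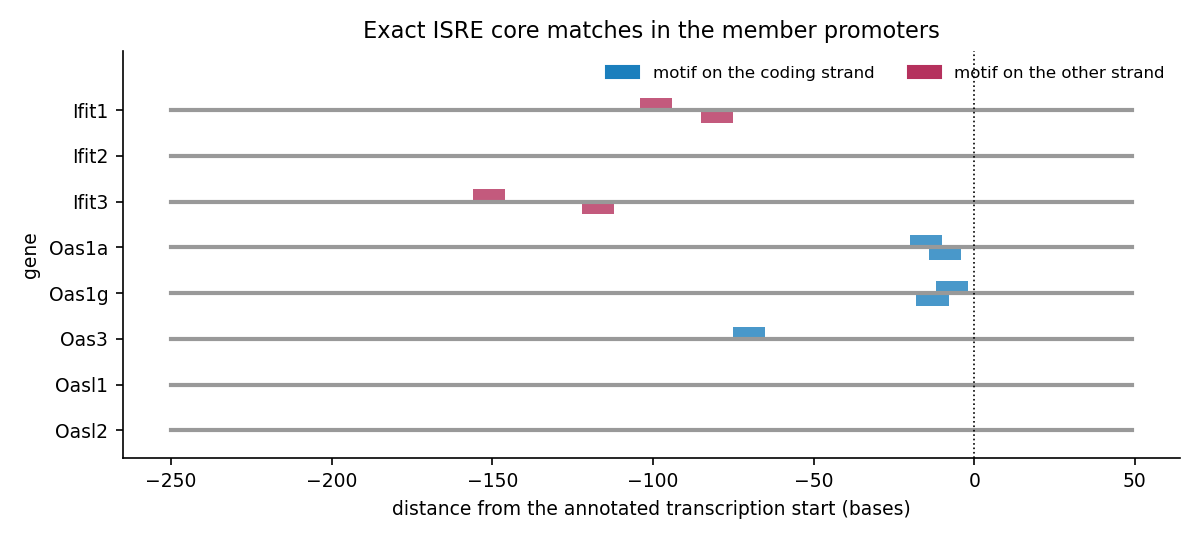
Positions of exact matches to the ISRE core in the promoters of the 8 member genes in the table, with distance from the annotated start in bases on the x axis and 1 gene per row. Blue bars are matches on the coding strand and red bars on the other strand; the cores of Ifit1 and Ifit3 sit farther from the start than the overlapping pair of Oas1a and Oas1g, and Ifit2, Oasl1 and Oasl2 have none in this window.

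Of the 21 probes, 12 were detected on at least 1 array, meaning that their detection p-value, the share of negative control probes at or above them as the array software gives it, was below 0.01. These covered 7 genes: Ifit2, Ifit3, Oas1a, Oas1g, Oas2, Oasl1 and Oasl2. Another 3 genes, Ifit1, Oas1b and Oas3, had no detected probe. Of the 12 detected probes 8 were detected on all 4 arrays and 2 on the parental array only. All 12 were brightest on the parental array, the contrast for which the members were chosen. On the ΔCdk Rb-HA array 11 were dimmest, including all 8 that were detected everywhere, and the rest of the 11 were at background there. The shares over all probes were not computed, so nothing is read from these counts. Intensities below are the deposited averages over the beads of a probe, in arbitrary units on a linear scale. They are compared only within a probe, apart from sums over the same marker probes on each array. Arrays are always given in the order parental, Rb-deleted, WT Rb-HA, then ΔCdk Rb-HA.

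**Figure D2:**
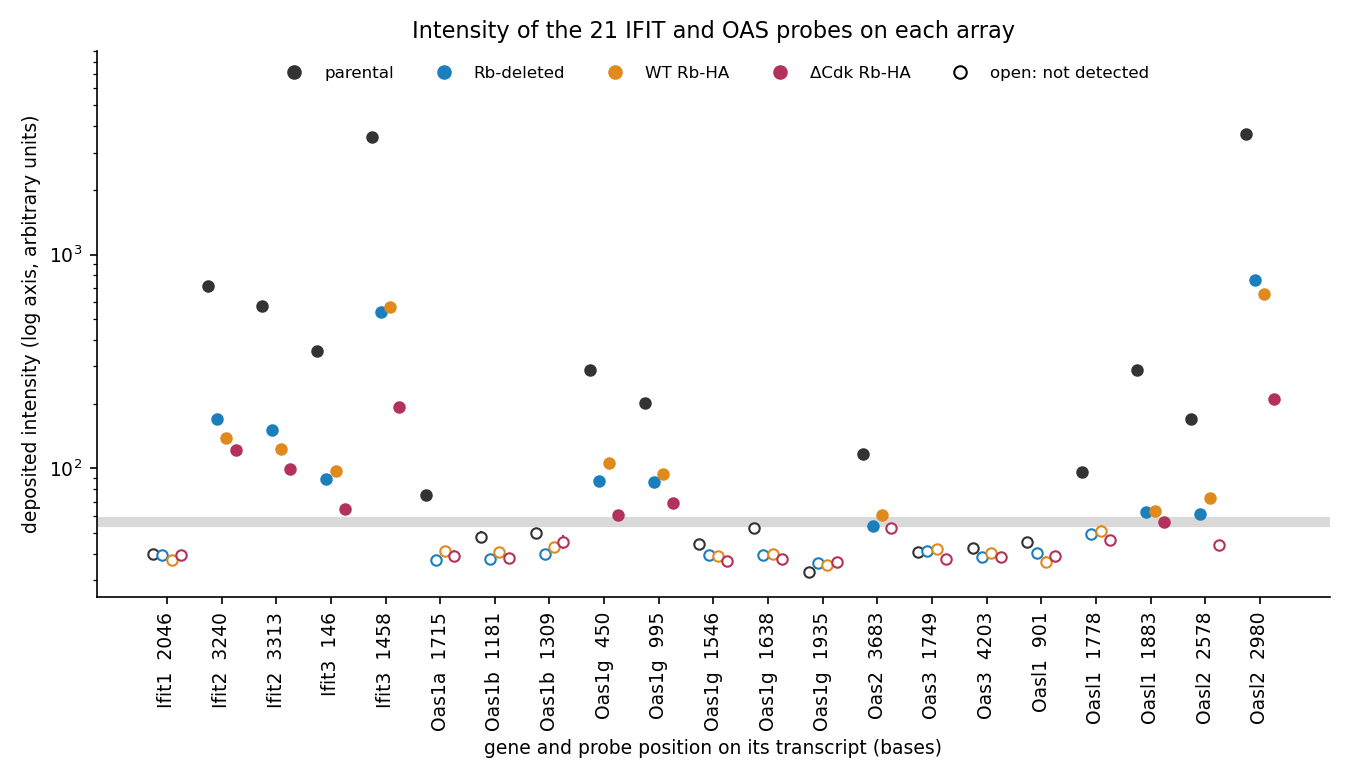
Deposited intensity of the 21 member probes on a log axis, with the gene and the probe's position on its transcript in bases along the x axis and 1 point per array. Bars are bead standard errors, open points are not detected, and the grey band spans the lowest detected intensities of the 4 arrays (53.8 to 58.4). All 12 detected probes are highest on the parental array, the contrast for which the members were chosen.

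Ifit2, which binds RNA and has been tied to cell death as well as to antiviral defence, was read by 2 probes. The probe at transcript position 3240 gave 712 on the parental array, 171 after Rb deletion, 140 with WT Rb-HA and 122 with ΔCdk Rb-HA. The probe at 3313 gave 575, 151, 123 and 99.9 on the same arrays. Both probes put the 3 TAT-Cre arrays close together, far below the parental array. After normalization the probe at 3240 lay at -2.18 relative to parental on the log2 scale after Rb deletion, with a bead standard error of 0.08. It lay at -2.54 (0.08) with WT Rb-HA and at -2.74 (0.09) with ΔCdk Rb-HA. The probe at 3313 differed from it by 0.11, 0.10 and -0.05 on the log2 scale in the 3 ratios, within 2 bead standard errors each time.

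Ifit3, which forms complexes with other Ifit proteins, was read by 2 probes. Its brighter probe, at position 1458, gave 3548, 537, 569 and 194. The signal was about level on the Rb-deleted array and with WT Rb-HA, and lowest with ΔCdk Rb-HA. The ratios to parental were -2.75 (bead standard error 0.05), -2.64 (0.05) and -4.30 (0.07), which correspond to 6.71-fold, 6.25-fold and 19.6-fold lower signal. The probe at position 146 gave 354, 89.5, 96.8 and 64.5, in the same order of arrays. It showed smaller ratios, of -2.26, -2.16 and -2.98, and the gap to the brighter probe reached -1.32 (0.14) in ΔCdk Rb-HA MEFs.

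The probe at 146 is not specific to Ifit3. Of its 50 bases 49 also occur in the probe of a transcript that the array lists as LOC667370, similar to Ifit3, and that RefSeq names Ifit3b. No other member probe shared 20 or more bases in a row with any of the 45281 probes outside its own gene. Matches of the Oas1a, Oas1b and Oas1g probes to transcripts of other Oas1 genes were not tested, so signal from those relatives cannot be told apart here. The first 30 bases of both probes are shown for this reason, with the shared letters in capitals.
Ifit3, probe at 146: CAGGGAAGGAAGTATGTCCAGTCATATGGA
LOC667370, probe at 144: tCAGGGAAGGAAGTATGTCCAGTCATATGG

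LOC667370 gave 441, 91.7, 122 and 66.4, and its ratios to parental were -2.55 (0.09), -2.06 (0.09) and -3.25 (0.10). Signal at either of these probes can come from either gene. The probe of Ifit3 at 1458 shares no such stretch with another probe of the array. Its match to the LOC667370 transcript was not tested, so it is not known to be specific to Ifit3. The first 30 bases of that probe are the following.
Ifit3, probe at 1458: ctgtgagacagatgtgctgtggagtgctgc

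Ifit1, the founding member of its family, was not detected on any array. Its single probe, at position 2046, gave 40.0, 39.2, 37.3 and 39.5, a level at which no ratio can be read. Its probe holds 26% G and C, the lowest share of the 21, and is shown because a gene of the same cluster with 2 ISRE cores stayed at background through it.
Ifit1, probe at 2046: ttatatgctaaaagtattcattgaaagtga

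Oas1g, an Oas1 gene that encodes an active synthetase, had 2 detected and 3 undetected probes. The probe at position 450 gave 289, 87.8, 106 and 60.6. The probe at 995 gave 203, 86.4, 94.1 and 69.1. In both, WT Rb-HA MEFs were the highest of the TAT-Cre arrays and ΔCdk Rb-HA MEFs the lowest. Ratios to parental at position 450 were -1.98 (0.09), -1.68 (0.13) and -2.81 (0.12), against -1.46 (0.11), -1.35 (0.11) and -1.95 (0.11) at 995. The 2 probes thus differed in size by 0.52, 0.33 and 0.86 on the log2 scale. Probes at 1546, 1638 and 1935 were at background on every array, although they read the same gene symbol. The highest of these values was 52.7 at position 1638 on the parental array, with a detection p-value of 0.027.

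Oas1a, a second active Oas1 enzyme, was detected on the parental array only. Its probe, at position 1715, gave 74.8, 37.3, 41.1 and 39.0. All 3 TAT-Cre arrays were at background, so only a bound can be given, against the lowest detected signal of the dim array. On the normalized scale used here the gene was at least 1.65-fold lower after Rb deletion, at least 1.51-fold lower with WT Rb-HA and at least 1.59-fold lower with ΔCdk Rb-HA. Oas1b was not detected. Its probe at 1181 gave 47.9, 37.9, 40.5 and 38.0, and its probe at 1309 gave 49.8, 39.8, 42.9 and 45.4. Both were brightest on the parental array, where their detection p-values were 0.068 and 0.041, short of the limit used here. Other Oas1 genes outside the members (Oas1c, Oas1d, Oas1e and Oas1h) were at background on every array.

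Oas2, which makes longer oligoadenylates and carries a duplicated synthetase unit, had 1 probe, at position 3683. It gave 117, 54.1, 60.4 and 52.7. The first 3 arrays detected it, while with ΔCdk Rb-HA the detection p-value was 0.022. It lay at -1.58 (0.11) relative to parental after Rb deletion and at -1.38 (0.12) with WT Rb-HA, and with ΔCdk Rb-HA, where the probe was at background, its deposited intensity was 2.21-fold lower. Oas3, the largest enzyme of the family, was not detected. Its probes gave 40.8, 41.2, 41.9 and 37.6 at position 1749 and 42.3, 38.4, 40.0 and 38.3 at position 4203.

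Oasl1, an Oas-like protein without synthetase activity that in mice holds back the translation of Irf7, had 3 probes. Its best probe, at position 1883, gave 289, 62.4, 63.3 and 56.3. The 3 TAT-Cre arrays were almost level, just above the lowest detected intensities. Ratios to parental were -2.72 (0.12), -2.76 (0.13) and -2.99 (0.13). The probe at 1778 gave 95.9 on the parental array and was at background on the others, at 49.5, 51.1 and 46.1. These deposited intensities were 1.94-fold, 1.88-fold and 2.08-fold below the parental value, with background included. The probe at 901 was at background on every array.

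Oasl2, an Oas-like protein that has kept synthetase activity, resembled Ifit3. Its brighter probe, at position 2980, gave 3690, 762, 658 and 212. The Rb-deleted array was a little above WT Rb-HA, and ΔCdk Rb-HA was far below both. Ratios to parental were -2.26 (0.06), -2.48 (0.07) and -4.21 (0.07), which correspond to 4.79-fold, 5.58-fold and 18.6-fold lower signal. The second probe, at 2578, gave 171, 61.0, 72.9 and 44.0 and was not detected with ΔCdk Rb-HA. It stood at -1.94 (0.14) and -1.60 (0.15) in the first 2 ratios, and in the third its deposited intensity was 3.88-fold lower, with background included.
Oasl2, first 30 bases of the probe at 2980: ggccttgtgctctagaatggtaccaatcca

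Against the parental array, all 7 detected genes were lower by more than 1.6-fold, the study's own filter, on each of the 3 TAT-Cre arrays. For Oas1a the bound alone passes 1.6-fold after Rb deletion only. Over all 12616 genes analysed, 2.98% were lower past this filter after Rb deletion, 2.46% with WT Rb-HA and 3.3% with ΔCdk Rb-HA, while 2.14%, 0.888% and 2.58% were higher and no member was. Since the members were chosen for this contrast, nothing is read from the difference. The median log2 ratio over the 7 genes was -2.18, -2.48 and -2.81, beside medians over all genes of 0.02, 0.01 and -0.01. The 2 detected Ifit genes had medians of -2.46, -2.59 and -3.52, and the 5 detected Oas genes -1.98, -1.68 and -2.81. All 3 ratios share the single parental array, so that any error of that array enters each of them.

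**Figure D3:**
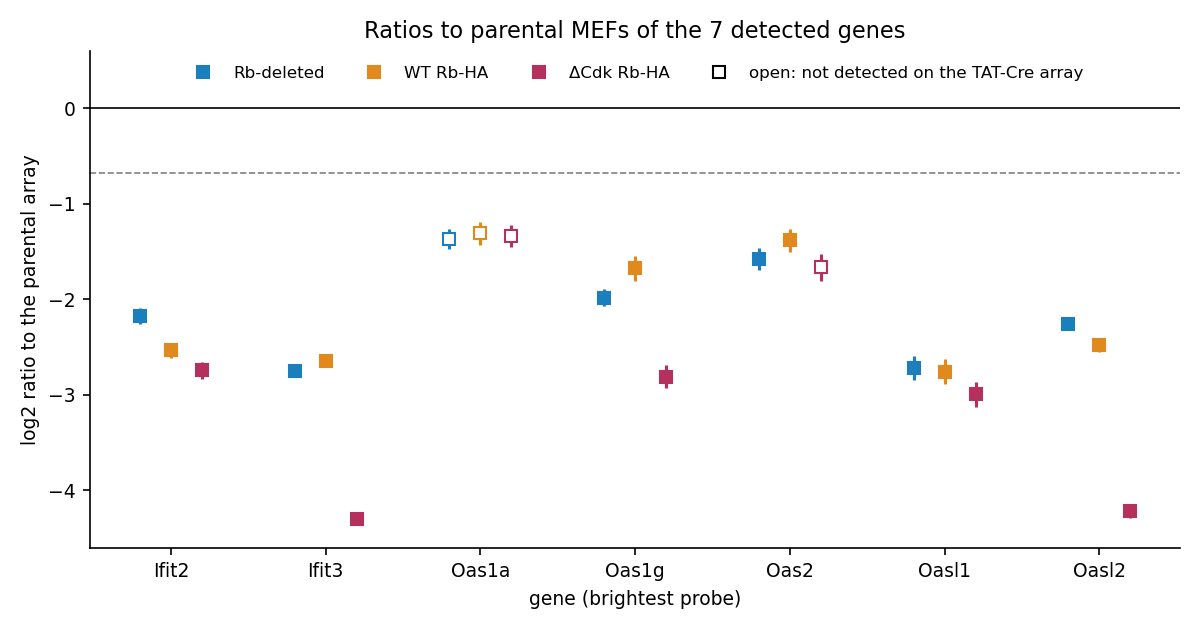
Log2 ratio to the parental array of the 7 detected genes, each by its brightest probe, with bars for 1 bead standard error and a dashed line at 1.6-fold lower. Filled squares are detected on both arrays of the ratio. Open squares are not detected on the TAT-Cre array, where the plotted ratio rests on a background value. ΔCdk Rb-HA lies lowest for every gene but Oas1a, and by more than 1.6-fold for Ifit3, Oas1g and Oasl2 only. The 3 arrays lie close together for Oasl1, just above the lowest detected intensities.

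The 3 TAT-Cre arrays were compared with each other to see whether the form of Rb went with the level of the members. The parental array is not a term of these ratios, but it entered the normalization, the choice of the brightest probe and the detection filter. The members were chosen with these values known too, so the counts below are a description. With WT Rb-HA against no Rb, none of the 7 genes passed 1.6-fold in either direction, beside 0.484% of all genes lower and 0.539% higher. Of the 6 genes measured on both arrays, Ifit2 at -0.36 (0.10) and Oasl2 at -0.22 (0.07) were lower with WT Rb-HA by more than 2 bead standard errors, and Oas1g at 0.31 (0.14) was higher. Ifit3 at 0.10 (0.06), Oas2 at 0.19 (0.13) and Oasl1 at -0.04 (0.16) differed by less than 2 bead standard errors. The second probes did not all follow. For Oasl2 the probe at 2578 gave 0.33 (0.17), opposite in sign to the probe at 2980, whereas both Ifit2 probes gave -0.36. The median was 0.03 across the 6 genes and 0.06 with Oas1a, which was at background on both arrays.

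With ΔCdk Rb-HA against WT Rb-HA, both given by retrovirus, 3 of the 7 genes were lower past 1.6-fold, beside 1.01% of all genes, and none was higher, beside 0.84%. These were Oasl2 at -1.73 (0.08), Ifit3 at -1.65 (0.07) and Oas1g at -1.13 (0.16), or 3.33-fold, 3.14-fold and 2.20-fold lower. The other probes of these genes pointed the same way with smaller sizes. The Ifit3 probe at 146 gave -0.82 (0.14), the Oas1g probe at 995 gave -0.60 (0.12), which is short of 1.6-fold, and the Oasl2 probe at 2578 was at least 1.51-fold lower. Ifit2 at -0.21 (0.10) and Oasl1 at -0.23 (0.17) stayed within 1.6-fold. Oas2 was not detected with ΔCdk Rb-HA, and Oas1a was at background on both arrays. The median over all 7 genes, with these background values, was -0.28, and over the 5 genes measured on both arrays it was -1.13.

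With ΔCdk Rb-HA against no Rb the same 3 genes were lower past 1.6-fold, beside 1.95% of all genes, and none was higher, beside 2.31%. Oasl2 stood at -1.95 (0.07), Ifit3 at -1.55 (0.08) and Oas1g at -0.83 (0.13). The second Oas1g probe, at 995, gave -0.49 (0.13), short of the filter, and Oas1g at its brighter probe was also short of it without background correction, at -0.55, and with an offset of 50, at -0.49. Ifit2 was at -0.57 (0.10), short of the filter at its brighter probe and past it, at -0.73 (0.10), at the probe at 3313. Oasl1 was at -0.28 (0.16). The median over all 7 genes was -0.57. Because both ratios hold the ΔCdk Rb-HA array, they are not independent. Against Rb-deleted MEFs, which received no virus, ΔCdk Rb-HA cannot be told apart from retroviral infection. By their brightest probes, Ifit3, Oasl2 and Oas1g were lower past 1.6-fold with ΔCdk Rb-HA than on the other TAT-Cre arrays. Ifit2 and Oasl1 lay within 1.6-fold across all 3. Oasl1 gave 56.3 with ΔCdk Rb-HA, where the lowest detected intensity was 55.5, so a larger fall could hardly be measured. Ifit2 pointed the same way as the 3 genes. Whether the members split into groups was therefore not tested. Without replicate arrays no spread between cultures is known, and the bead standard errors cover only the beads within an array.

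**Figure D4:**
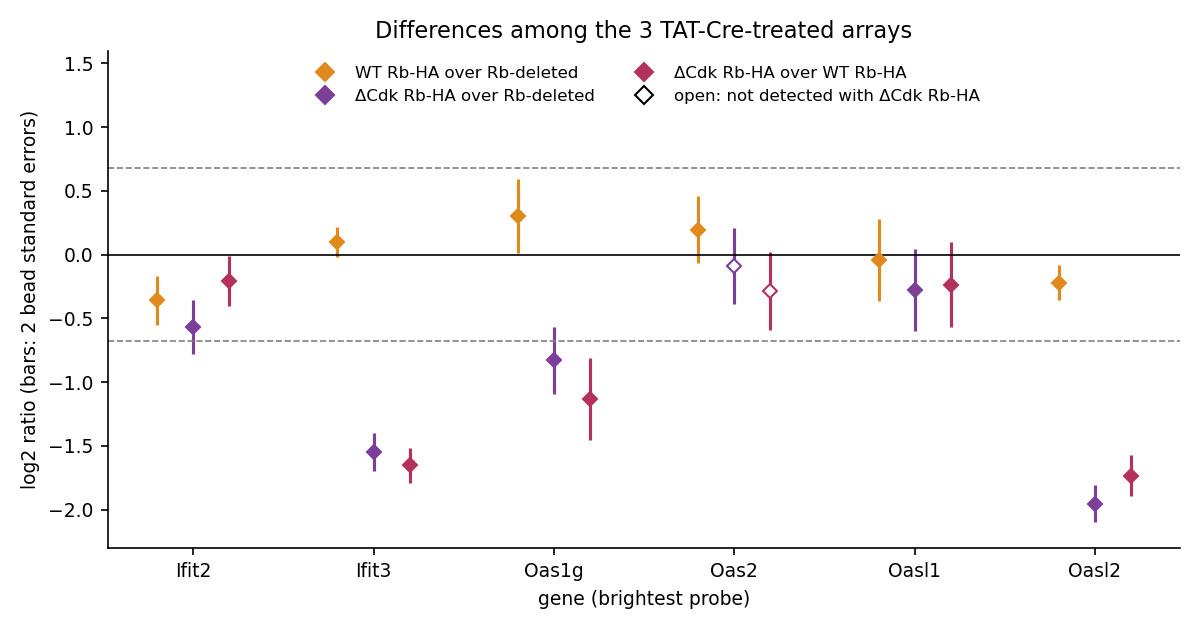
Log2 ratios between the 3 TAT-Cre-treated arrays for the 6 members detected on at least 1 of them, each by its brightest probe, with bars for 2 bead standard errors and dashed lines at 1.6-fold. Open symbols mark Oas2 where the ΔCdk Rb-HA array did not detect it; Ifit3, Oas1g and Oasl2 lie below the lower dashed line in both ratios of ΔCdk Rb-HA, and no gene passes a dashed line for WT Rb-HA over Rb-deleted.

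The genes outside the members whose 3 ratios to parental lay nearest to the members' median profile were found by the root mean square difference over the 3 ratios. Ifi44, an interferon-induced gene, was nearest, at a difference of 0.07, with ratios of -2.20, -2.38 and -2.74. The next were Ccl5, a chemokine, at 0.20, Cd69, an activation antigen of lymphocytes, at 0.24, Ifih1, the RNA sensor Mda5, at 0.24, and Ccl4, another chemokine, at 0.25. Ifi44, Cd69 and Ifih1 were not detected on all 4 arrays, so their ratios partly rest on background values. Likeness over 3 ratios with a shared denominator is a description of these arrays. A further relative, listed on the array as OTTMUSG00000016644 and in RefSeq as Ifit1bl1, gave 99.0 on the parental array and was at background on the others, at 41.8, 44.1 and 38.3.

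The upstream steps of the pathway did not all move with the members. Of 16 interferon genes on the array only Ifna6 and Ifnab were detected. Ifnb1, the main type I interferon of fibroblasts, was at background on every array, at 33.2, 33.0, 36.7 and 37.1. Ifna6 gave 79.0, 75.1, 73.0 and 70.1, and Ifnab gave 97.0, 123, 115 and 116, and neither passed 1.6-fold in any ratio. Among 7 detected receptor chains and kinases of 9 on the array, all ratios to parental were below 0 and none passed 1.6-fold. The receptor chain Ifnar2 stood at -0.19 (0.16), -0.27 (0.18) and -0.34 (0.17), and its partner Ifnar1 was at background. Jak1 stood at -0.51 (0.10), -0.48 (0.09) and -0.53 (0.10).

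Transcription factors of the response differed among themselves. Of 9 detected ISGF3 and IRF genes, 5 after Rb deletion, 6 with WT Rb-HA and 6 with ΔCdk Rb-HA were lower than parental past 1.6-fold and none was higher. Over all genes 2.98%, 2.46% and 3.3% were lower. The 6 with WT Rb-HA hold Irf8, which was detected on the parental array only. Its ratio of -0.68 with WT Rb-HA rests on a background value and barely passes the filter. Stat2 stood at -1.05 (0.10), -1.02 (0.11) and -2.12 (0.14), and Irf9 at -1.01 (0.07), -1.10 (0.07) and -2.08 (0.06). Irf7, which amplifies interferon production, stood at -1.77 (0.14), -1.84 (0.14) and -3.29 (0.17). Irf3, which is activated by RNA sensing, stood at 0.27 (0.06), 0.13 (0.06) and -0.03 (0.05), and Irf2 at -0.27 (0.05), -0.14 (0.05) and -0.43 (0.05), both within 1.6-fold and named after their values were seen. The log2 ratio of ΔCdk Rb-HA over WT Rb-HA was -1.10 for Stat2, -0.98 for Irf9 and -1.44 for Irf7, all past 1.6-fold.

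Partners and brakes of the families differed among themselves. Abce1, an ATP-binding protein of the oligoadenylate pathway, stood at -0.47 (0.11), -0.34 (0.11) and -0.41 (0.10), within 1.6-fold. Usp18, which removes Isg15 from proteins and dampens receptor signalling, gave 4424, 924, 961 and 295. It stood at -2.28 (0.06), -2.21 (0.05) and -3.98 (0.06), and at -1.77 (0.07) for ΔCdk Rb-HA over WT Rb-HA, beside -1.73 for Oasl2 and -1.65 for Ifit3. Of the 5 detected negative regulators 3 were lower than parental past 1.6-fold on each array. Of 11 detected genes of RNA and DNA sensing, 5, 4 and 6 were lower, and of 27 other detected interferon-induced genes, 23, 24 and 25 were lower. Over all genes 2.98%, 2.46% and 3.3% were lower. Part of these calls rest on background values. Tlr3, Tlr7, Mx1 and Parp12 were detected on the parental array only, and Ifih1, Dhx58 and Cxcl10 were among those not detected with ΔCdk Rb-HA. The medians of the 27 genes were -1.09, -1.23 and -1.78. For ΔCdk Rb-HA over WT Rb-HA 9 of the 27 were lower past 1.6-fold, Cxcl10 included, beside 1.01% of all genes.

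**Figure D5:**
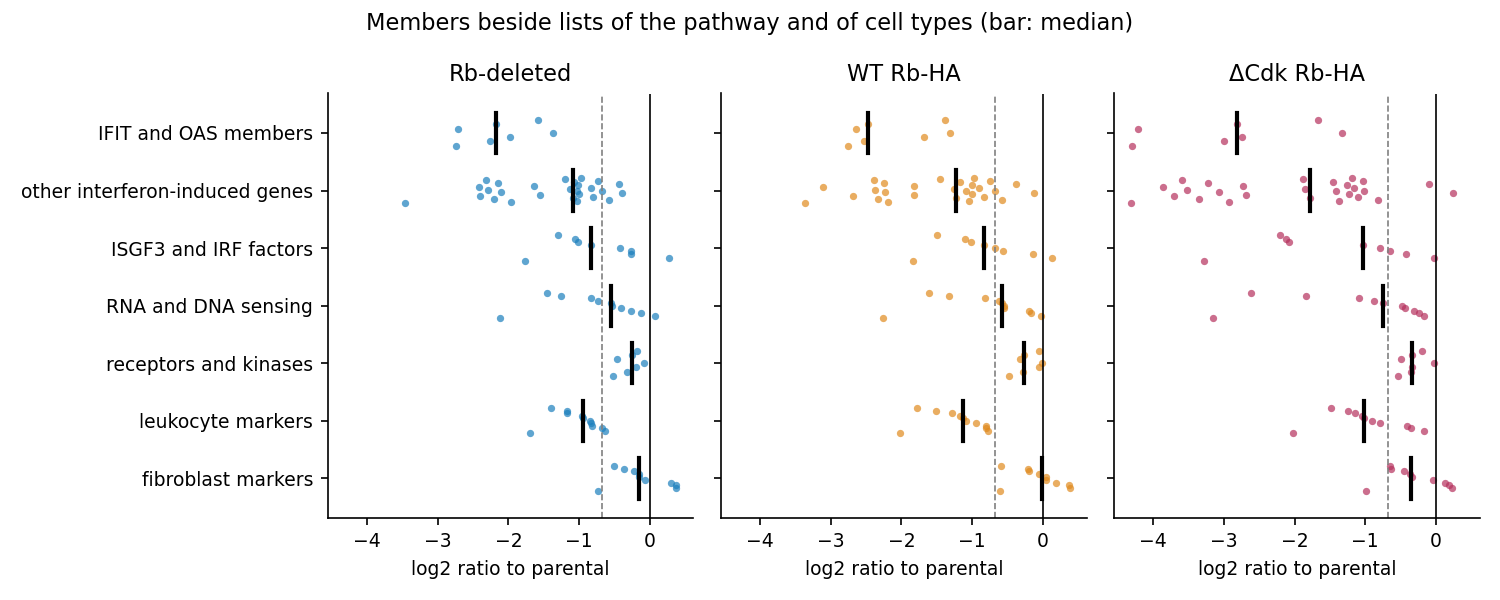
Log2 ratios to parental of the detected genes of each list (x axis), 1 panel per TAT-Cre array, with a point per gene, a black bar at the median and a dashed line at 1.6-fold lower. The 7 members were chosen for low ratios to parental, so nothing is read from their low medians (-2.18, -2.48 and -2.81). Receptors and kinases stay to the right of the dashed line, and leukocyte markers lie lower than fibroblast markers on all 3 arrays.

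Markers of other cells were read beside the members. All 10 fibroblast markers were detected, and their summed intensity was 65337, 60045, 66542 and 58682 on the 4 arrays. Of them 1 (Col3a1) was lower past 1.6-fold after Rb deletion, none with WT Rb-HA and 1 (again Col3a1) with ΔCdk Rb-HA. Macrophage or other leukocyte markers were lower on the same arrays as the members. Of 15 on the array 11 were detected, 3 of these listed under symbols for lysozyme (Lyz, Lyz2 and Lyzs), while Ptprc, Itgam, Fcer1g and Lyz1 were at background on every array. All 11 were below parental, with medians of -0.94, -1.13 and -1.02. Of them 9, 11 and 8 were lower past 1.6-fold, beside 2.98%, 2.46% and 3.3% of all genes. Emr1, a macrophage surface antigen, had the lowest ratio to parental of the 11 on each TAT-Cre array and gave 773, 247, 203 and 198. The summed intensity of the 11 was 11464, 6039, 5531 and 7022. This sum is weighted toward bright probes such as Lyz, at 4801, 2976, 2803 and 3611, and does not describe the markers evenly. Among the TAT-Cre arrays the median ratio of the 11 markers for ΔCdk Rb-HA over WT Rb-HA was 0.29, above 0 for 9 of the 11. For ΔCdk Rb-HA over Rb-deleted it was 0.02, with 5 of the 11 below 0. Both medians count the 3 lysozyme symbols separately, although they may not be separate genes. For ΔCdk Rb-HA over WT Rb-HA, Lyz stood at 0.37, and Lyzs at 0.45 and Lyz2 at 0.78 were the highest of the 11. Medians without lysozyme were not computed. The part of these cells in the members' fall was not tested. In such bulk samples, fewer cells of a type and less RNA per cell cannot be told apart. Dendritic and endothelial markers were detected for 1 of 5 genes each.

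Rb1 was read by 2 probes. The probe at position 4421 gave 543, 160, 181 and 170, and the probe at 4002 gave 108, 56.7, 51.1 and 52.9. The probe at 4002 was not detected with WT Rb-HA or ΔCdk Rb-HA, where its detection p-values were 0.053 and 0.021. Ratios to parental at 4421 were -1.88 (0.08), -1.69 (0.06) and -1.75 (0.06), so the arrays labelled TAT-Cre were all lower, those with re-expressed Rb included. Whether these probes lie in the deleted segment or in the retroviral Rb is not given in the sources used here, so they do not measure the re-expressed protein. Across the array, mean intensities were 336 to 346 and 15950 to 16740 probes were detected per array, so the parental array did not stand apart in these measures.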

How the data were processed

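Total RNA of 4 MEF samples was hybridised to 1 BeadChip array each. The authors deposited a table of non-normalized intensity values per probe, with the bead standard error, the number of beads (22 to 71 for member probes) and a detection p-value, as given per the file headers. The deposited values carry no normalization between arrays, and the software that summarized the beads is not given in the sources used here. Depth in reads does not apply; the number of arrays limits the precision.

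Intensities were background-corrected with limma (version 3.58.1, R 4.3.3) by normexp (offset 16), which estimated the background through the detection p-values, followed by quantile normalization and log2 transformation. Genes entered with any probe detected (p-value under 0.01) on 1 array or more and were represented by the brightest probe, leaving 12616 genes and 17746 probes. Removal of background makes ratios of dim probes larger than those of the deposited intensities. Bead standard errors were carried through this mapping and combined over both arrays. With 1 array per condition no p-value was computed. Where 1 array of a pair did not detect a probe, a bound on the normalized scale was taken against the higher of the probe's own value and the lowest detected value of that array, and was given only where it did not exceed the ratio of the deposited intensities. All 6 pairs of arrays were compared. Calculations in Python 3.11.15 (numpy 2.4.6, pandas 2.3.3) were tested on simulated data. The table's genome positions mix builds and are not used here; 34 symbols that had been turned into dates were restored by Entrez number.

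Named genes were the 10 members, their relatives by description, Rb1, the 5 genes nearest in profile, and fixed pathway partners and cell type markers. Members, lists and comparisons were chosen with earlier results of these data known. Some listed partners are not reported here.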

Additional observations from a re-analysis of the deposited data

How the results depend on the processing

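No paired analysis was possible because each condition has 1 array, and no array could be left out for the same reason. Changed one at a time were the fold, the detection limit, the choice of probe, the between-array normalization, the background correction and the offset; an offset of 1 was added after seeing the data. No member's called ratio reversed. With an offset of 50 the median of the members relative to parental was -1.95 after Rb deletion, -2.02 with WT Rb-HA and -2.14 with ΔCdk Rb-HA, and without background correction it was -2.18 with WT Rb-HA and -2.32 with ΔCdk Rb-HA. The mean of detected probes gave -2.04 and -2.38 for these 2, a detection limit of 0.05 gave -2.08 for WT Rb-HA with 8 genes, and an offset of 1 gave -3.48 for ΔCdk Rb-HA. For ΔCdk Rb-HA over WT Rb-HA the median of -0.28 over 7 genes became -1.13 when only the 5 genes detected on all 4 arrays entered, -0.54 with an offset of 1 and -0.16 with an offset of 50. For ΔCdk Rb-HA over Rb-deleted the median of -0.57 became -0.83 with those 5 genes. Members lower than parental past the fold numbered 5 to 7 in every setting, 6 with an offset of 50, where Oas1a no longer passed, and 5 where only 5 genes entered. Members lower with ΔCdk Rb-HA numbered 3 against WT Rb-HA in every setting and 2 to 3 against Rb-deleted, where Oas1g was short of 1.6-fold without background correction (-0.55), with an offset of 50 (-0.49) and with the mean of detected probes (-0.66). Oasl2 for WT Rb-HA over Rb-deleted, at -0.22, was at 0.06 with the mean of its detected probes. Over the alternatives, 90 counts and medians and 251 ratios of single genes stayed within the limit used, and 12 and 73 moved, for which the cause was not tested. Signal near background limits Oas1a, Oas2 and Oasl1, whose TAT-Cre values lie at or just above the lowest detected intensity.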
